A study of Homo sapiens with 24 samples.

Results

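Constitutive first and last exons are the exon bins at the 2 ends of a gene that the authors' tables class as shared by the gene's transcripts. Of 164219 bins in the 4 deposited tables, 11595 carried a constitutive first or constitutive last class and no list of several classes, with 6041 first and 5554 last exons in 8826 genes. The end counts of a library were set against the summed counts of the same gene's constitutive internal exons, of which there were 67668. Of 2473 genes with all 3 kinds of exon, 1638 had a mean of 10 or more counts in each and were tested. At that minimum, PLA2G4A and RELB lay just inside with a mean of 10.0 first-exon counts, and RGL1 and CSGALNACT2 just outside with 9.96. Among all members, 1873 first and 716 last exons had a mean under 10 counts, and 24 and 17 of these had no count in any library.

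The cells were HEK293T, an established line from human embryonic kidney, in 2 experiments with DMSO controls of their own. In the first, cells received DMSO or 10 µM OSMI-2, which inhibits OGT, the enzyme that adds O-GlcNAc, for 2 h or 6 h. In the other, they received DMSO or 5 µM TMG (Thiamet-G), which inhibits the O-GlcNAcase, named MGEA5 in the tables, for 2 h or 6 h. All groups had fresh medium for a few hours before treatment, and each group had 3 libraries of polyadenylated RNA in the tables, except OSMI-2 at 6 h with 2. Library totals ran from 39465746 to 100161560 bin counts. In the OSMI-2 experiment every OSMI-2 library, at 56236427 to 100161560, was deeper than every DMSO library, at 41737278 to 54136565. In the TMG experiment the totals overlapped, at 39465746 to 49927182 with TMG and 43042616 to 56408059 with DMSO. Drug and depth therefore went together in the OSMI-2 experiment, and whether depth goes with its calls was not tested. Of the kidney and neuronal genes that HEK293 lines carry, PAX2 was at 1.21 to 4.2 and NEFM at 0.3 to 2.2 CPM (bin counts scaled by the library total). LIN28B was at 4.06 to 113 and COL1A1, a collagen of fibroblasts, at 6.28 to 20.4, and ALB and PTPRC, markers of liver and blood cells, were not listed.

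O-GlcNAc is a single sugar that OGT places on serines and threonines of nuclear and cytosolic proteins and that the O-GlcNAcase removes. RNA polymerase II and many factors of transcription and RNA processing carry it. The first exon of a transcript begins at the start site and carries the cap, and the last exon ends at the site of cleavage and polyadenylation. In polyadenylated RNA, a truncated or partly copied molecule keeps the last exon and loses the first, and a transcript that is cut at an earlier polyadenylation site keeps the first exon and loses part of the last. The ratio of an end to the internal exons therefore follows start-site use, polyadenylation-site use, the state of the RNA and the evenness of the library, and the counts do not tell these apart. In bulk RNA, fewer cells with a transcript and less of it per cell cannot be told apart either.

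Start regions are shown for the genes whose first exons carry results below, with OGT as a drug target. The sequences are RefSeq's (GRCh38.p14), from 250 bases before to 50 bases after the gene's start, and the 50 transcribed bases are in capitals.
OGT: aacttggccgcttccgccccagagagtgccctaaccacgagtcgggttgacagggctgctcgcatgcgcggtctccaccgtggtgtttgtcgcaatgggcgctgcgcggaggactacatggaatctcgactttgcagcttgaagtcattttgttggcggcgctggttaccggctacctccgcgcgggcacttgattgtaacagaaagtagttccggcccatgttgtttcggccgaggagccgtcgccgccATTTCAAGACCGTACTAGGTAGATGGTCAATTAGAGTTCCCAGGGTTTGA
PKM: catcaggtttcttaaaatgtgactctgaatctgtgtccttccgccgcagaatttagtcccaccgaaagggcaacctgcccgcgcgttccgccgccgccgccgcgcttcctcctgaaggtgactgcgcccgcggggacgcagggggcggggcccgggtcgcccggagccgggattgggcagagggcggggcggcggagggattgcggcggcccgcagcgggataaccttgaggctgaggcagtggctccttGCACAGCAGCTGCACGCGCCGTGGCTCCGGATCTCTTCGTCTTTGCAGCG
EEF1B2: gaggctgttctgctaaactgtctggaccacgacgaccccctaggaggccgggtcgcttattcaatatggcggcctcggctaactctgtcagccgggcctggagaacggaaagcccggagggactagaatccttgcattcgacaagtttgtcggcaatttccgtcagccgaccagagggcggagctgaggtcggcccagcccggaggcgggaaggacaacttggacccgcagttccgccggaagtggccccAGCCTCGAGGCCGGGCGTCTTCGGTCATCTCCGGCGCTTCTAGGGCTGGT
LY6G5B: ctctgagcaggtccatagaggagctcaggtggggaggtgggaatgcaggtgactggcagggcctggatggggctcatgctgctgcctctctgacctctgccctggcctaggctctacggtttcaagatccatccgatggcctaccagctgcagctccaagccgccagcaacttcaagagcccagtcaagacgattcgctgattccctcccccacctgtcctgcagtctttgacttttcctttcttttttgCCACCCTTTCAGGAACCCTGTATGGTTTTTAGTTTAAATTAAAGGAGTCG
PPP6R1: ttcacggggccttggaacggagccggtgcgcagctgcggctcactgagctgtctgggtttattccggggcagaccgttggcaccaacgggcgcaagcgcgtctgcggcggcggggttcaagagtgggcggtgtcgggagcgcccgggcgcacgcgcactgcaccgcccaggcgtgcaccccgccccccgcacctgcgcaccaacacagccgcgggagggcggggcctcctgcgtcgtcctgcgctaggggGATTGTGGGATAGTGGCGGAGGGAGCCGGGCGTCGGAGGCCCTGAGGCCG
BRWD1: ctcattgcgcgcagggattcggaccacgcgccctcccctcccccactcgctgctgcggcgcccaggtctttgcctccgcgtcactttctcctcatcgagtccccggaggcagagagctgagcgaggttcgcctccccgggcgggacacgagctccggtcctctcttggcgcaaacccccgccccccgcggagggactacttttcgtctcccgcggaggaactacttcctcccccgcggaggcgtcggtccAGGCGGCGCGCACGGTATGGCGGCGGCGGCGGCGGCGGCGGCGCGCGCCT
They lie at chrX:71532854-71533153 on the plus strand (OGT), chr15:72231141-72231440 on the minus strand (PKM), chr2:206159359-206159658 on the plus strand (EEF1B2), chr6:31669726-31670025 on the plus strand (LY6G5B), chr19:55258968-55259267 on the minus strand (PPP6R1) and chr21:39313583-39313882 on the minus strand (BRWD1). The count tables use hg19, so whether a RefSeq start is that of the first-exon bin was not compared. The GC content over the 300 bases was 54.7% in LY6G5B, 57.7% in OGT, 63.3% in EEF1B2, 68.0% in PKM, 72.7% in BRWD1 and 73.3% in PPP6R1, against a median of 66.3% over the 1338 tested genes with a RefSeq start region. The GC box GGGCGG, searched on both strands, occurred 4 times in PPP6R1, 3 times in PKM, with 2 matches in BRWD1, 1 each in OGT and EEF1B2 and 0 in LY6G5B. It was present in 44.6% of the 27305 start regions of the same length and in 73.8% of those of tested genes. None of the 6 regions held TATAAA on either strand, which 12% of all start regions and 4.6% of those of tested genes held.

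Every tested first exon lay upstream, and every tested last exon downstream, of the gene's internal exons. The median width was 259.5 bases for first exons, 1668.5 for last exons and 1013.5 for the internal exons of a gene together. Per base, the median gene had 0.329 times as many counts in its first exon, and 0.387 times as many in its last exon, as in its internal exons. Over all libraries together, first-exon counts were 8.32% of internal counts in the median gene, with quartiles of 3.98% and 18.8%. The lowest ratio was 0.153% in FTSJ3, a factor of ribosome assembly, and the highest 752% in HNRNPA0, an RNA-binding protein. Last-exon counts were 54.5% of internal counts in the median gene, with quartiles of 23.7% and 127%, and exceeded the internal counts in 528 genes. The scatter between libraries of a group was larger for first than for last exons: the median SD of the log2 ratio was 0.155 to 0.325 for first and 0.1 to 0.255 for last exons over the 8 groups. For last exons it was lower in each of the 4 groups of the TMG experiment, at most 0.111, than in any group of the other. For first exons it was at most 0.214 there, against 0.199 with OSMI-2 at 6 h and 0.302 to 0.325 in the other 3 groups.

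The median log2 ratio over the 1638 genes summarised each library. For first over internal exons, the DMSO libraries at 2 h in the OSMI-2 experiment had -3.60, -3.55 and -3.61, and the OSMI-2 libraries -3.54, -3.88 and -3.59. At 6 h the values were -3.79, -3.54 and -3.75 with DMSO and -3.62 and -3.48 with OSMI-2. The groups overlapped at both times, and OSMI-2 library b at 2 h was the lowest of all 23. In the TMG experiment, DMSO libraries had -3.31, -3.41 and -3.30 at 2 h and -3.50, -3.72 and -3.72 at 6 h. TMG libraries had -3.34, -3.43 and -3.43 at 2 h and -3.73, -3.67 and -3.75 at 6 h. All 6 libraries at 2 h were above all 6 at 6 h there, and at each time the TMG and DMSO libraries overlapped.

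For last over internal exons, the OSMI-2 experiment gave -0.10, -0.42 and -0.26 with DMSO and -0.51, -0.05 and -0.32 with OSMI-2 at 2 h. At 6 h it gave -0.50, -0.49 and -0.40 with DMSO and -0.56 and -0.69 with OSMI-2, so both treated libraries were the lower ones. The TMG experiment gave -1.15, -1.07 and -1.13 with DMSO at 2 h and -1.06, -1.01 and -1.06 with DMSO at 6 h. With TMG it gave -1.11, -1.01 and -1.10 at 2 h and -1.04, -0.98 and -1.0 at 6 h. The 12 libraries of the TMG experiment were all below the 11 of the OSMI-2 experiment.

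**Figure D1:**
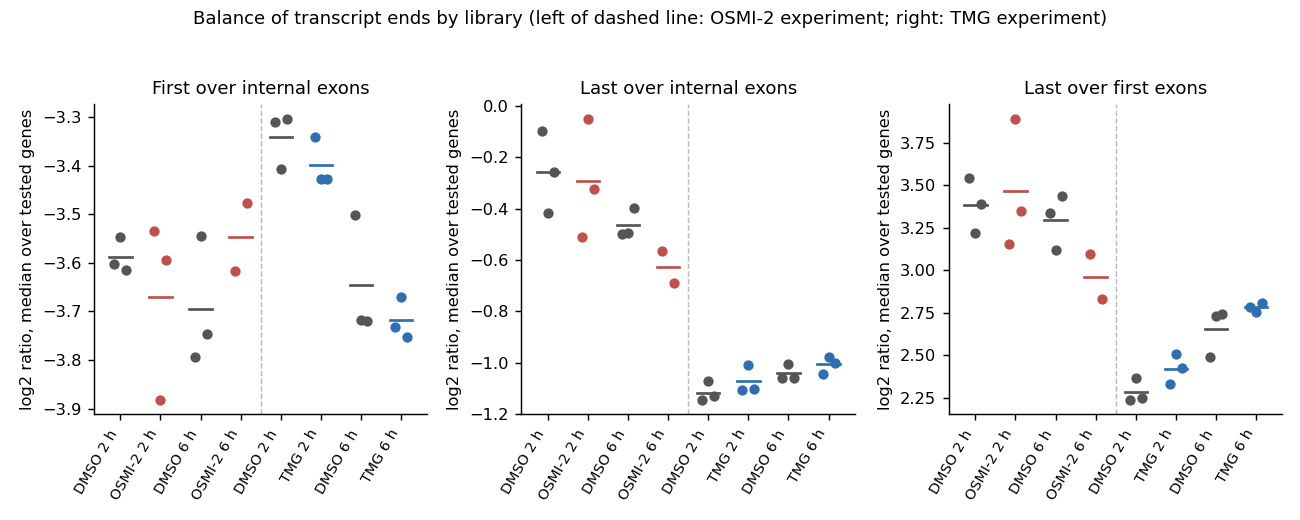
Median log2 ratio over 1638 genes of first to internal, last to internal and last to first exon counts (y axes) for each library (points, with the group mean as a bar), by treatment and time (x axis). The last over internal values of the TMG experiment, -1.15 to -0.98, all lie below those of the OSMI-2 experiment, -0.69 to -0.05, and first over internal falls from 2 h to 6 h in the TMG experiment.

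Exact two-sided permutation tests were run on these library values, 42 in all with Benjamini-Hochberg adjustment. With 3 libraries against 3, or 2 against 3, no p can go below 0.1. At 6 h, the last over internal mean was -0.46 ± 0.06 (SD, n = 3) with DMSO and -0.63 ± 0.09 (n = 2) with OSMI-2, without overlap, and its p is the smallest this design allows (exact permutation p = 0.1, adjusted p = 0.263). Its first over internal mean went from -3.70 ± 0.13 to -3.55 ± 0.10, with overlap (exact permutation p = 0.3, adjusted p = 0.467). At 2 h the OSMI-2 differences were -0.08 for first (exact permutation p = 0.9) and -0.04 for last exons (exact permutation p = 0.8). TMG differed from DMSO by -0.06 and -0.07 for first exons at 2 h and 6 h (exact permutation p = 0.2 and 0.5). For last exons, TMG differed by 0.05 and 0.04 (exact permutation p = 0.4 and 0.2). None of the drug differences passed after adjustment.

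Between the experiments, the 6 DMSO libraries had a last over internal mean of -1.08 ± 0.05 in the TMG experiment and of -0.36 ± 0.16 in the OSMI-2 experiment, a difference of -0.72, with no overlap (exact permutation p = 0.00216, adjusted p = 0.0455). This test pooled 2 h and 6 h, was not among the planned ones, and its p is the smallest that its 924 arrangements allow. In the planned tests at each time, the difference was -0.86 at 2 h and -0.58 at 6 h, also without overlap (exact permutation p = 0.1 and adjusted p = 0.263 at each time). The first over internal mean was -3.49 ± 0.19 in the TMG experiment and -3.64 ± 0.11 in the OSMI-2 experiment, and the libraries overlapped (exact permutation p = 0.123). When counts were summed over genes in place of the median gene, the first-exon difference changed sign, from 0.25 to -0.30 at 2 h and from 0.05 to -0.34 at 6 h. Internal constitutive exons held 20.7% to 22.8% of all bin counts in the TMG experiment and 11.2% to 15.8% in the OSMI-2 experiment. Last exons held 5.89% to 6.71% and 4.90% to 6.21%, and first exons 1.54% to 1.91% and 1.24% to 1.43%. The experiment is not a treatment, and cells, extraction and library making cannot be told apart within it.

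Gene by gene, the last exons of 7 genes and the first exons of 6 differed between OSMI-2 and DMSO at 6 h. At 2 h the first exons of 2 genes did. Between TMG and DMSO 1 last exon differed, at 6 h. These are genes past an adjusted p of 0.05 in edgeR's quasi-likelihood test of the end counts, with the gene's internal counts as offset, out of 1638. A call does not say which of the 2 groups moved. The shares were 0.366% for first and 0.427% for last exons with OSMI-2 at 6 h, 0.122% for first and 0.0% for last exons with OSMI-2 at 2 h, and 0.0% for first exons at 2 h and 6 h and for last exons at 2 h with TMG, against 0.0611% for last exons with TMG at 6 h. Unadjusted p values under 0.05 were reached by 145 first and 242 last exons with OSMI-2 at 6 h, and by 133 and 23 at 2 h. TMG reached 108 and 116 at 2 h and 120 and 141 at 6 h. Where the count was 0, DESeq2 called 1 last exon with OSMI-2 at 2 h and 3 last exons with TMG at 2 h, and limma called 2 last exons with TMG at 2 h and 1 first exon with TMG at 6 h.

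All 7 last exons called with OSMI-2 at 6 h fell. The call with the lowest adjusted p was EIF2AK2, which encodes PKR, a kinase that senses double-stranded RNA and phosphorylates the initiation factor eIF2. Its last exon (hg19 chromosome 2, 37326351 to 37334538, minus strand, 8188 bases) had 213%, 206% and 211% of the internal counts in DMSO at 6 h and 61.6% and 47.6% with OSMI-2. The log2 fold change was -1.95 (SE 0.15, edgeR adjusted p = 0.00134), and the groups were far apart. The call held in all 18 alternatives that gave a value, with log2 changes of -2.14 to -1.40. The 2 h DMSO libraries of that experiment had 116%, 118% and 80.7%, the 2 h OSMI-2 libraries 75%, 118% and 75.9%, and the 12 libraries of the TMG experiment 104% to 128%. Both 6 h groups of the OSMI-2 experiment thus stood apart from all other libraries, DMSO above and OSMI-2 below. By level, that is in TMM-scaled counts and not as a ratio, the last exon fell by 1.53 on the log2 scale (edgeR adjusted p = 0.00368, with 2.56% of last exons called by level), while the internal exons gave 0.44 (edgeR adjusted p = 0.818).

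SCO1, a copper chaperone for cytochrome c oxidase, has a last exon of 8544 bases (hg19 chromosome 17, 10575789 to 10584332). It had 202%, 228% and 241% of internal counts in DMSO at 6 h and 131% and 127% with OSMI-2, a log2 change of -0.79 (SE 0.11, edgeR adjusted p = 0.0425). Here the OSMI-2 libraries at 6 h were at the level of the 2 h libraries, which had 126% to 152% with DMSO and 134% to 144% with OSMI-2. C10orf137, now named EDRF1, a regulator of red-cell genes, went from 46.2% ± 1.6 (SD, n = 3) to 24.0% ± 0.9 (n = 2). BMPR1A, a type I receptor for bone morphogenetic proteins, went from 25.1% ± 4.7 to 5.92% ± 0.26, on a mean of 34.6 last-exon counts.

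CCND2, which encodes cyclin D2, had 2491% ± 244 with DMSO and 1510% ± 2.9 with OSMI-2 at 6 h, with an internal part of 1 exon of 216 bases beside a last exon of 5494. RBM33, an RNA-binding protein, went from 407% ± 38 to 251% ± 30. The last of the 7, RP11-517H2.6, a gene model named only by its clone, went from 42.3% ± 6.7 to 12.1% ± 2.2 on a mean of 47.0 counts. Its 2 h DMSO libraries had 13.0%, 15.6% and 13.3%, again at the level of the 6 h OSMI-2 libraries. The groups did not overlap in any of these 7, as in 33.0% of all 1638 last exons in this comparison. EIF2AK2 aside, the calls were not made in 6 of 17 (CCND2) to 8 of 16 (RP11-517H2.6) alternatives that gave a value.

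Over all genes, the last exons' median log2 change was -0.15, with 78.3% of them below 0. The first exons' median was 0.17, with 27.4% below 0. In 924 of 1638 genes the first exon was higher and the last exon lower. Centred on each library's median, EIF2AK2 alone of the 7 was called, and 4 first exons were called, 1 higher and 3 lower against 4 higher and 2 lower without centring. Without DMSO library c, 1 last and 1 first exon were called, and without DMSO library a 12 and 9. Leaving out either OSMI-2 library left 1 last exon, and leaving out OSMI-2 library b left 1 first exon. In these fits OSMI-2 had 1 library, and the spread came from the DMSO libraries alone. DESeq2 called 33 last exons, all lower, and 0 first exons. The authors' deposited table called 113 of these last exons, 108 of them lower, and 57 of the first exons, 54 of them higher, including all 7 of the last and 3 of the 6 first exons called by edgeR.

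Among first exons with OSMI-2 at 6 h, 4 rose and 2 fell. PKM, the pyruvate kinase of the last step of glycolysis, has a first-exon bin of 63 bases (hg19 chromosome 15, 72523665 to 72523727, minus strand). Its counts were 8, 76 and 16 with DMSO, and 148 and 371 with OSMI-2, or 0.103%, 0.532% and 0.112% against 0.815% and 1.36% of the internal counts. The log2 change was 2.03 (SE 0.33, edgeR adjusted p = 0.00216). A level above both OSMI-2 libraries also occurred without the drug, 2.30% in 1 DMSO library at 2 h of the TMG experiment, whose other 2 had 0.171% and 0.274%. The 3 DMSO libraries at 2 h of the OSMI-2 experiment ran from 0.0843% to 0.713%.

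EEF1B2, a subunit of the translation elongation factor eEF1, had 8.64%, 9.30% and 7.02% with DMSO and 12% and 13.9% with OSMI-2 in its 90-base first exon (hg19 chromosome 2, 207024319 to 207024408). The log2 change was 0.66 (SE 0.14, edgeR adjusted p = 0.0260). NBPF1, of a family with many near-identical copies, went from 23.0% ± 2.8 (SD, n = 3) to 41.2% ± 5.0 (n = 2). LY6G5B, a gene of the Ly6 family in the major histocompatibility region, fell in its first exon of 57 bases (hg19 chromosome 6, 31638729 to 31638785). It had 14.5%, 17.2% and 15.9% with DMSO and 5.38% and 7.28% with OSMI-2, a log2 change of -1.28 (SE 0.26, edgeR adjusted p = 0.0239). The 2 h libraries of that experiment had 5.46% to 9.65%, and those of the TMG experiment 10.4% to 17.2%. COX19, a factor for the assembly of cytochrome c oxidase, went from 46.9% ± 12.7 to 22.2% ± 1.8. No overlap was found in these 5, as in 24.1% of all first exons. The edgeR adjusted p was 0.0413 for NBPF1 and 0.0464 for COX19. COX19 was not called in 12 of 19 alternatives that gave a value, NBPF1 in 10 of 19 and EEF1B2 in 7 of 19. PKM was not called in 6 of 19 and LY6G5B in 6 of 18. By level, 0.672% of first exons were called, LY6G5B among them with a log2 change of -2.78 (edgeR adjusted p = 2.92e-04). EEF1B2, PKM and RPL23 below have processed copies elsewhere in the genome, and NBPF1 has paralogs, so their counts are uncertain.

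At 2 h, 2 first exons were lower with OSMI-2 than with DMSO, both on fewer than 50 mean counts. NUMBL, an adaptor protein related to NUMB, had 7.13%, 7.16% and 4.57% with DMSO and 3.00%, 1.83% and 2.36% with OSMI-2, a log2 change of -1.36 (SE 0.27, edgeR adjusted p = 0.0489). SLC2A4RG, a DNA-binding regulator of the glucose transporter gene SLC2A4, had 12.1%, 50.2% and 1.85% with DMSO and 1.46%, 0.575% and 2.26% with OSMI-2, and the groups overlapped. Its log2 change was -3.85 (SE 0.71, edgeR adjusted p = 0.0370) and -2.25 without DMSO library b (edgeR adjusted p = 0.597). At 2 h the groups did not overlap in 12% of first and 4.15% of last exons. Its start region is the most GC-rich of the genes named here, at 87.0%. Between the 2 h and 6 h libraries of the TMG experiment, without regard to drug, it went from 5.08% to 28.7% down to 0.735% to 3.56%. The number of first exons called at 2 h was 0 without DMSO library a, DMSO library b or OSMI-2 library b, 1 without OSMI-2 library c, 20 without OSMI-2 library a and 28 without DMSO library c.

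With TMG at 6 h, the last exon of RPL23, a protein of the large ribosomal subunit, rose. Its 177-base last exon (hg19 chromosome 17, 37004116 to 37004292, minus strand) had 0.450%, 0.681% and 0.583% with DMSO and 1.53%, 1.54% and 1.32% with TMG. The log2 change was 1.36 (SE 0.16, edgeR adjusted p = 0.00599), with no overlap, as in 15.1% of all last exons. At 2 h the groups overlapped: DMSO libraries had 1.55%, 1.21% and 1.498%, and TMG libraries 0.396%, 0.415% and 1.51%. RPL23 fell from 2 h to 6 h of DMSO, by 1.31 on the log2 scale (SE 0.17, edgeR adjusted p = 0.00117). Within the 12 libraries, 7 lay between 1.21% and 1.55% and 5 between 0.396% and 0.681%, with none in between. No last exon was called at 6 h without DMSO library c or TMG library a, and 2 were called without TMG library c.

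**Figure D2:**
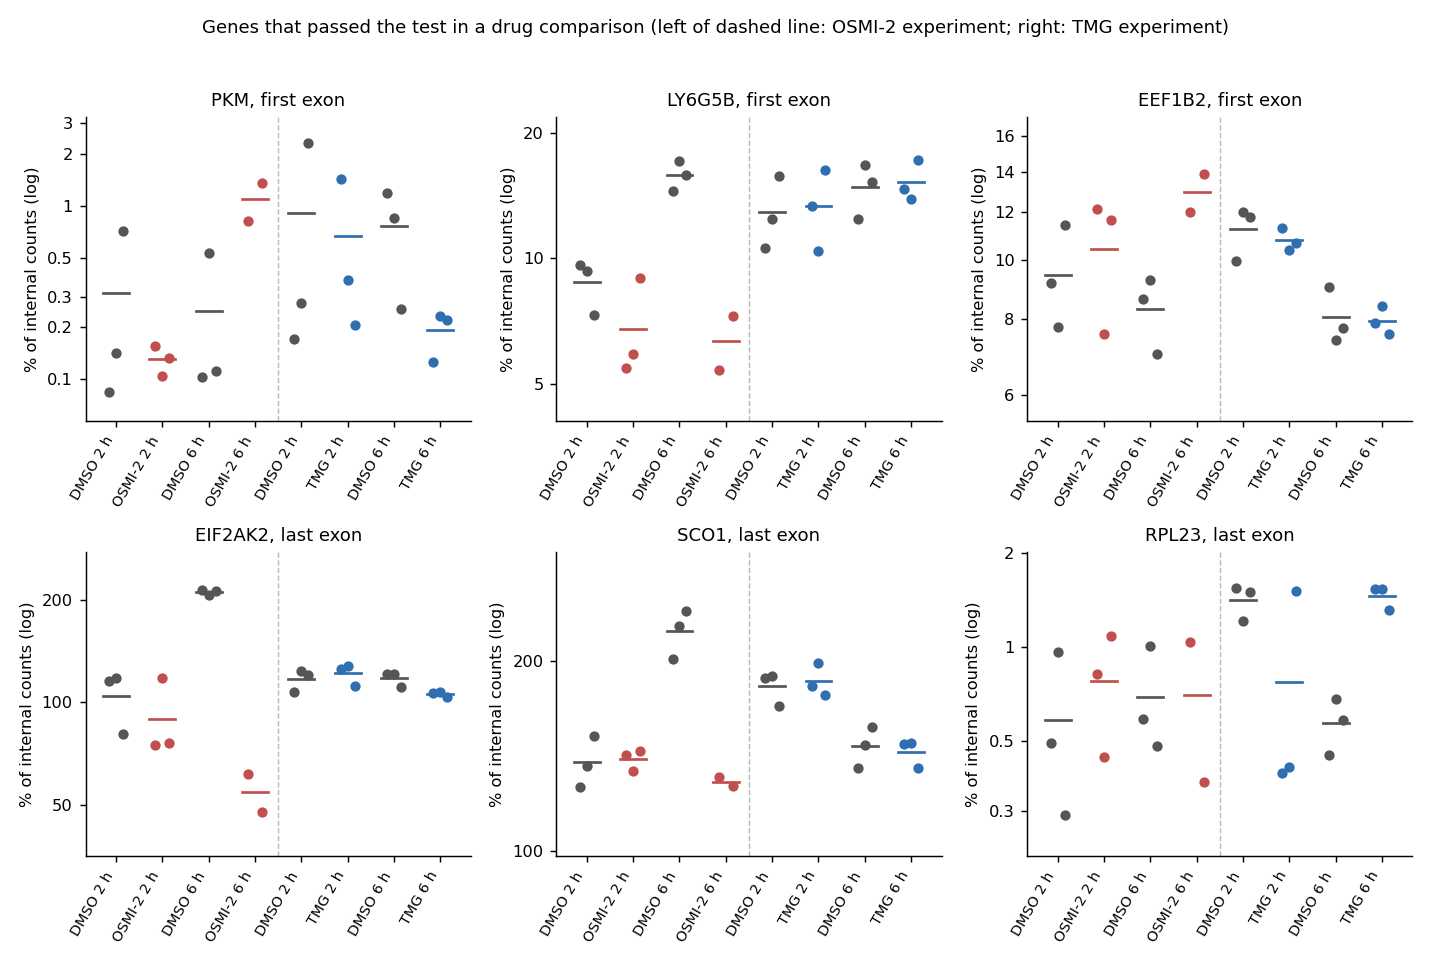
End counts as a percentage of the gene's internal counts (y axes, log scale) in each library (points, with the group mean as a bar) for 6 genes past the threshold in a drug comparison, by treatment and time (x axis). In EIF2AK2 and SCO1 the DMSO libraries at 6 h of the OSMI-2 experiment are the highest of all libraries, and in PKM and RPL23 single libraries of the same treatment differ several-fold.

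By ratio to internal exons, the drug targets themselves did not pass edgeR's test in any drug comparison, though both did by level. OGT's first exon (hg19 chromosome X, 70752913 to 70753186) had 3.61%, 3.62% and 4.07% with DMSO at 6 h and 5.71% and 5.17% with OSMI-2, a log2 change of 0.53 (SE 0.18, edgeR adjusted p = 0.265) with no overlap. Its last exon (70793470 to 70795750) had 63.2%, 66.4% and 70.8% with DMSO and 96.9% and 81.6% with OSMI-2, a log2 change of 0.42 (SE 0.10, edgeR adjusted p = 0.150), also without overlap. In the authors' deposited table both ends were called, with log2 fold changes of 0.51 (adjusted p = 0.0132) and 0.48 (adjusted p = 2.35e-05). That table also called the last exon with TMG at 6 h, with a log2 fold change of -0.17 (adjusted p = 9.31e-17). For MGEA5, the authors' deposited table called the first exon with OSMI-2 at 6 h, with a log2 fold change of 0.41 (adjusted p = 0.0335), and the last exon with TMG at 6 h, with -0.08 (adjusted p = 0.0408). With TMG, OGT's last exon had 34.1%, 36.9% and 36.9% with DMSO and 39.6%, 38.5% and 39.3% with TMG at 2 h, and 43.4%, 44.7% and 43.9% against 42.6%, 40.3% and 41.4% at 6 h. The log2 changes were 0.12 and -0.09 (edgeR adjusted p = 0.678 and 0.612). Over time in DMSO, OGT's last exon fell by 0.57 in the OSMI-2 experiment (edgeR adjusted p = 0.0398) and rose by 0.29 on the log2 scale in the TMG experiment (edgeR adjusted p = 0.0174). The fall was not called in 8 of 18 alternatives and the rise in 5 of 18. Leaving out 1 library lost the fall in 5 of 6 fits and the rise in 4 of 6. By level, OGT's internal counts with OSMI-2 at 6 h fell by 2.29 on the log2 scale (edgeR adjusted p = 0.0195). Its last exon had a level change of -1.83 there (edgeR adjusted p = 1.84e-06). With TMG at 6 h, the level change of its internal counts was -0.44 (edgeR adjusted p = 6.07e-05). Its internal counts in DMSO were 668 to 1030 at 2 h and 3262 to 7336 at 6 h in the OSMI-2 experiment.

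MGEA5, the O-GlcNAcase, has 2 constitutive internal exons of 224 bases together, beside a first exon of 642 (hg19 chromosome 10, 103577581 to 103578222) and a last exon of 2147 bases (103544198 to 103546344). With OSMI-2 at 6 h its first exon had 92.6% and 104% against 93.9%, 93.7% and 73.5% with DMSO, and its last exon 1070% and 882% against 1259%, 1350% and 1277%. The last-exon log2 change was -0.42 (SE 0.10, edgeR adjusted p = 0.149). With TMG at 6 h, the first exon had 76.1%, 77.1% and 71.0% against 97.3%, 84.1% and 83.9%, a log2 change of -0.24 (SE 0.10, edgeR adjusted p = 0.655). The groups did not overlap there, as in 11.1% of first exons. By level, MGEA5's last exon with OSMI-2 at 6 h gave -2.31 on the log2 scale (edgeR adjusted p = 4.74e-10). Its internal exons gave -1.92 (edgeR adjusted p = 0.211). With TMG at 6 h, its internal exons gave 0.81 by level (edgeR adjusted p = 1.34e-09).

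**Figure D3:**
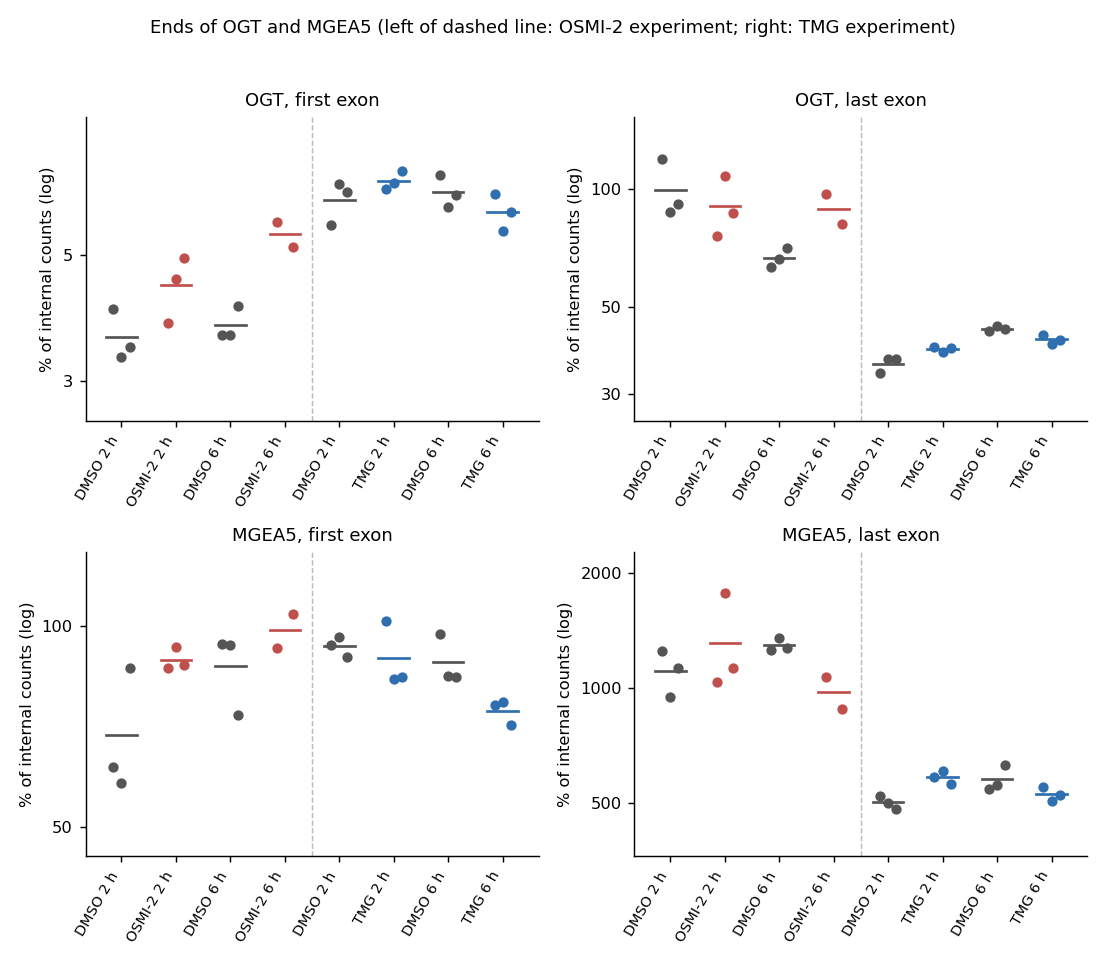
First-exon and last-exon counts of OGT and MGEA5 as a percentage of the gene's internal counts (y axes, log scale) in each library (points, with the group mean as a bar), by treatment and time (x axis). The last exons of both genes are lower throughout the TMG experiment, at 34.1% to 44.7% for OGT and 482% to 626% for MGEA5, than throughout the OSMI-2 experiment.

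Genes of the machinery that makes and trims transcript ends gave no call with either drug. At most 0.427% of first or of last exons were called in any drug comparison. The absence of calls therefore does not set these few genes apart from the rest. Of 23 factors of cleavage and polyadenylation, CPSF3 and NUDT21 could be tested, of 26 genes of RNA polymerase II and its pausing and elongation factors 7, of 27 genes of cap binding and mRNA decay 7, and of 8 genes of O-GlcNAc cycling 3. For the 7 polymerase genes the median log2 change with OSMI-2 at 6 h was 0.15 for first and -0.01 for last exons, against 0.17 and -0.15 over all tested genes. For the 7 decay genes it was 0.26 and -0.31. Over time in DMSO, in the TMG experiment, the first exons of NCBP1, the large cap-binding subunit, DIS3, an exosome nuclease, PAN3, a deadenylase subunit, and CTR9, a subunit of the elongation complex PAF1C, fell. The log2 changes were -0.56, -0.33, -0.93 and -0.32 (edgeR adjusted p = 0.0105, 0.0453, 0.0177 and 0.0496). These were 3 of the 7 decay genes and 1 of the 7 polymerase genes, against 20.0% of all first exons. CTR9 was not called in 12 of 18 alternatives, where its log2 change came as near 0 as -0.01, and DIS3 not in 8 of 18, down to -0.03. NCBP1 was not called in 4 of 16 and PAN3 in 5 of 17.

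In the TMG experiment, more first exons were called over time in DMSO than with TMG at either time, a difference between comparisons that was not tested. In both experiments no group went without DMSO or drug, and nothing says that 2 h and 6 h libraries were made together. Time, DMSO and library making therefore cannot be told apart. Over time in DMSO, 328 of 1638 first exons were called (20.0%), 326 of them lower at 6 h than at 2 h, with a median log2 change of -0.27. Last exons were called in 49 genes (2.99%), 36 higher and 13 lower, with a median of 0.06. Centred on each library's median, the first-exon count was 123, 31 of them higher. That scaling by construction removes a shift common to most genes. The count ran from 133 without DMSO 2 h library a to 589 without DMSO 6 h library a, whose first over internal value of -3.50 lay between the other 6 h libraries and the 2 h libraries. It was 164 without DMSO 2 h library c and 168 without DMSO 6 h library b or c.

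The largest falls by the naming rule were BRWD1, PPP6R1 and CABLES1. BRWD1, a bromodomain protein, has a first exon of 344 bases (hg19 chromosome 21, 40685369 to 40685712, minus strand), which had 10.6%, 8.15% and 7.89% at 2 h and 5.02%, 3.22% and 1.85% at 6 h. Its log2 change was -1.42 (SE 0.24, edgeR adjusted p = 0.00228). PPP6R1, a regulatory subunit of protein phosphatase 6, has a first exon of 236 bases (hg19 chromosome 19, 55769803 to 55770038, minus strand), which had 13.6%, 11.01% and 12.1% at 2 h and 6.48%, 4.56% and 3.97% at 6 h. Its log2 change was -1.27 (SE 0.17, edgeR adjusted p = 0.000968). The TMG libraries had 10.9% to 11.8% at 2 h and 3.37% to 3.95% at 6 h for PPP6R1. Its 2 h and 6 h libraries did not overlap, TMG and DMSO overlapped at 2 h, and at 6 h the 3 TMG libraries lay just below the 3 DMSO libraries. CABLES1, an adaptor of cyclin-dependent kinases, went from 36.1% ± 7.9 to 14.9% ± 3.1 (SD, n = 3 each). COX19 rose, from 57.8% ± 3.8 to 85.0% ± 11.2, a log2 change of 0.54 (SE 0.17, edgeR adjusted p = 0.0355). Leaving out 1 library lost that call in 5 of 6 fits. It was not made in 8 of 18 alternatives, where the log2 change was as low as 0.13.

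The fall of first exons went with the GC content of the start region. In the tertile of genes with the highest promoter GC (71.0% to 87.0%), the median log2 change over time in DMSO was -0.38, and 130 of 436 genes were called. In the tertile with the lowest (31.7% to 62.0%) it was -0.21, and 67 of 446 were called. Per library, the slope of the first over internal log2 ratio on promoter GC, per 10 percentage points, was -0.04, -0.09 and -0.05 in DMSO at 2 h and -0.10, -0.13 and -0.15 in DMSO at 6 h. With TMG it was -0.07, -0.08 and -0.07 at 2 h and -0.18, -0.15 and -0.18 at 6 h. In the OSMI-2 experiment the slope was -0.02 to -0.14 over all 11 libraries. With the GC trend of each library removed, 273 first exons were called in the DMSO comparison, 270 of them lower, against 269 in the same genes with the trend kept. Of the 273, 247 were among the genes called without this correction. The tertile of genes with the widest first exons (335 to 976 bases) also fell more, by -0.31 in the median, than the tertile with the narrowest (-0.24).

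In the OSMI-2 experiment, the 6 h DMSO libraries differed from the 2 h ones mainly in last exons. Of 1638, 105 were called (6.41%), 85 lower and 20 higher at 6 h, with a median log2 change of -0.23. First exons were called in 20 genes (1.22%), 16 lower and 4 higher, with a median of -0.03. Centred on the library median, 37 last exons were called, 31 of them higher, so the split reversed, and 34 first exons, 17 higher and 17 lower. The groups did not overlap in 17.6% of first and 32.8% of last exons. Leaving out 1 library gave between 14 last exons (without DMSO 6 h library b) and 197 (without DMSO 2 h library b). It gave 23 to 26 without DMSO 2 h library a, DMSO 2 h library c or DMSO 6 h library a.

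SEZ6L2, a neuronal membrane protein, fell in its last exon (hg19 chromosome 16, 29882478 to 29883049, minus strand) from 465%, 289% and 346% at 2 h to 135%, 120% and 127% at 6 h. Its log2 change was -1.52 (SE 0.19, edgeR adjusted p = 0.00265), and the call held in all 16 alternatives that gave a value, with log2 changes of -1.66 to -0.735, the last with all other bins of the gene as denominator. MRPL23, a mitochondrial ribosomal protein, fell from 16.9% ± 6.9 to 7.52% ± 2.22, and ANKRD52, a regulatory subunit of protein phosphatase 6, from 12.6% ± 5.2 to 5.68% ± 1.16. For each of these 2, leaving out 1 library lost the call in 4 of 6 fits. MRPL23 was not called in 8 of 16 alternatives and ANKRD52 in 8 of 18. TFDP2, a partner of the E2F factors, rose from 248.7%, 264% and 359% to 495%, 702% and 911%, GK5, a glycerol kinase, from 107% ± 29 to 234% ± 65, and C1orf21 from 119% ± 28 to 247% ± 37. Among first exons, GNL1, a GTP-binding protein, rose from 25.9% ± 1.7 to 53.1% ± 8.5, and TARS, the threonyl-tRNA synthetase, from 6.41% ± 0.72 to 10.1% ± 0.4. LY6G5B rose from 8.75% ± 1.27 to 15.9% ± 1.3, above the 6 h OSMI-2 libraries. That call was lost on leaving out any 1 of the 6 libraries (edgeR adjusted p = 0.0787 to 0.171) and was not made in 10 of 17 alternatives.

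Last exons called over time in the TMG experiment included SLC7A11, the cystine and glutamate exchanger. Its last exon of 7923 bases (hg19 chromosome 4, 139085249 to 139093171, minus strand) had 65.9%, 104% and 95.5% of internal counts at 2 h and 234%, 231% and 223% at 6 h. Its log2 change was 1.38 (SE 0.12, edgeR adjusted p = 1.72e-05). By level all parts of the gene rose, the last exon by 2.62 and the internal exons by 1.23 on the log2 scale (edgeR adjusted p = 4.03e-16 and 2.05e-14). The TMG libraries had 70.8% to 120% at 2 h and 243% to 262% at 6 h. CTU1, an enzyme of tRNA thiolation, rose from 19.9% ± 2.8 to 48.0% ± 7.5, and CCDC102A, a coiled-coil protein, from 61.0% ± 13.4 to 118% ± 10.0. MTA3, a subunit of the NuRD chromatin complex, fell from 44.3% ± 2.0 to 28.6% ± 2.2, and MRPL23 from 10.97% ± 0.83 to 5.26% ± 1.65.

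The drug by time interaction gave 0 calls by edgeR for first and for last exons in both experiments, with 170 and 105 unadjusted p values under 0.05 in the OSMI-2 experiment and 64 and 72 in the TMG experiment. DESeq2 called 6 last exons in the OSMI-2 interaction. An internal exon in the middle of a gene, set against the other internal exons, served as a background for the ends in 1332 genes. It gave 0 calls with OSMI-2 at 2 h (0.0%), 1 at 6 h (0.0751%), 2 with TMG at 2 h (0.15%) and 0 at 6 h (0.0%), 3 over time in DMSO of the OSMI-2 experiment (0.225%) and 0 of the TMG experiment (0.0%). Its median log2 change lay between -0.01 and 0.03 in these 6 comparisons.

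**Figure D4:**
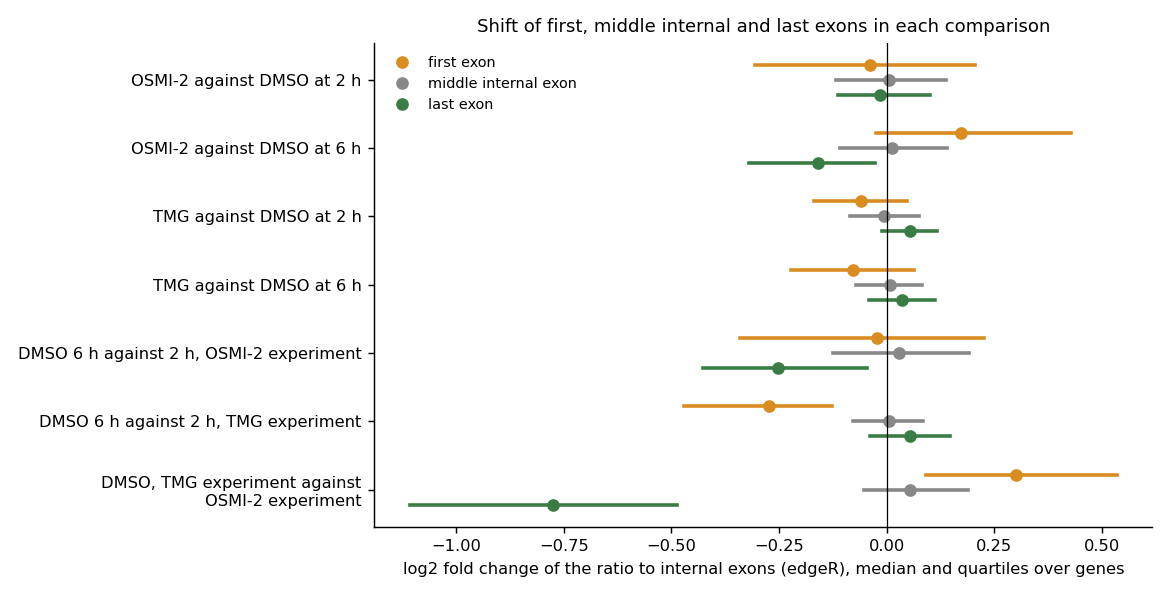
Median (point) and quartiles (bar) over 1332 genes of the edgeR log2 fold change (x axis) of the first exon, the middle internal exon and the last exon relative to internal exons in each comparison (y axis). The middle internal exon stays within 0.06 of 0 in its median throughout, while last exons reach -0.78 between the experiments and first exons 0.30 between the experiments and -0.27 over time in the TMG experiment.

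The largest contrast in these members was between the DMSO libraries of the experiments, with time as a term in the fit. Last exons were called in 1394 genes (85.1%), 1363 lower in the TMG experiment, with a median log2 difference of -0.71. First exons were called in 443 genes (27.0%), 406 higher in the TMG experiment, with a median of 0.26. The DMSO libraries of the experiments did not overlap in 1054 last exons (64.3%) and 141 first exons (8.61%). The middle internal exon was called in 113 of 1332 genes (8.48%). Centred on the library median, 464 of 947 last-exon calls were higher, and 206 of 264 first-exon calls. Of the genes called at both ends, 369 of 403 moved in opposite directions. Over all 1638 genes, called or not, 1244 had a higher first and a lower last exon, and 16 the reverse. With most first-exon calls higher and most last-exon calls lower, opposite directions were the usual outcome. The 403 genes were 91.0% of the first-exon calls, against 85.1% of all genes with a called last exon. They were 28.9% of the last-exon calls, against 27.0% of all genes with a called first exon. Both ends share the internal counts as their denominator.

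PRPF4B, a kinase of the spliceosome, had 1.28% ± 0.13 (SD, n = 6) last-exon counts in the TMG experiment and 7.94% ± 1.98 (n = 6) in the OSMI-2 experiment, a log2 difference of -2.59 (SE 0.15, edgeR adjusted p = 5.46e-09). MDN1, a giant ATPase of ribosome assembly with 86 constitutive internal exon bins, had 2.48% ± 0.31 and 14.5% ± 5.9. RLF, a zinc-finger protein, had 308% to 416% in the TMG experiment and 635% to 13500% in the DMSO libraries of the OSMI-2 experiment, where its internal counts were only 1 to 26 in a library. In the other direction, REEP1, a shaper of the endoplasmic reticulum, had 290% ± 35 and 108% ± 42, SLC16A14, a transporter of the monocarboxylate family, 145% ± 12 and 59.8% ± 28.6, and ZNF267, a zinc-finger protein, 204% ± 24 and 92.2% ± 37.8. NUDT21, which binds UGUA upstream of polyadenylation sites, had a higher last exon in the TMG experiment, at 206% ± 15 against 94.3% ± 32.5 in the other.

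All 7 tested decay genes had lower last exons in the TMG experiment, where 1363 of all 1638 last exons were called lower. Among the 7 was XRN1, the cytoplasmic 5′ to 3′ exonuclease, with a log2 difference of -1.56. OGT (-1.03), MGEA5 (-1.15) and PGM3 (-0.58) were lower too. Among first exons, PCM1, a protein of centriolar satellites, had 2.07% ± 0.31 against 0.593% ± 0.240, OSBPL9, a lipid-transfer protein, 3.62% ± 0.39 against 1.26% ± 0.39, and UTP20, a ribosome assembly factor, 1.497% ± 0.158 against 0.507% ± 0.138. BBS7, a subunit of the ciliary BBSome, was lower in the TMG experiment at 8.54% ± 1.03 against 20.0% ± 5.0, as were PTPRA, a receptor phosphatase, and ZNF367, a zinc-finger protein.

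The contrast between experiments widened with the length of the internal part. In the 546 genes with the shortest internal part (11 to 650 bases) the median log2 difference of last exons was -0.44, and 394 were called. In the tertile with the longest (1519 to 334092 bases, median 2438.5) it was -1.03, and 528 were called, all lower. For first exons the medians were 0.14 and 0.47. Length of the gene from end to end gave the same order, with -0.46 and -0.91 for last exons. OSMI-2 at 6 h, within 1 experiment, also had its larger last-exon median in the tertile with the longest internal part, -0.19 against -0.11 in the shortest. The same order was seen there without drug, in the mean last over internal log2 value of the DMSO libraries. From 2 h to 6 h it went from 0.79 to 0.68 in the shortest tertile and from -1.15 to -1.38 in the longest.

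**Figure D5:**
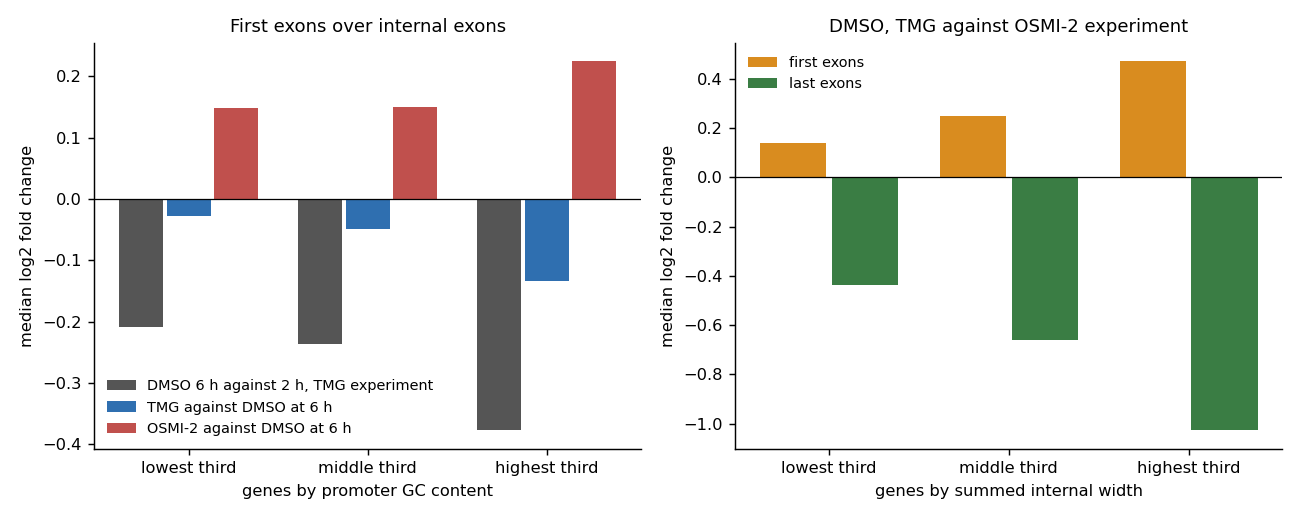
Left, median log2 fold change (y axis) of first over internal exons in tertiles of the genes by promoter GC content (x axis) for 3 comparisons. Right, median log2 difference (y axis) of first and last exons between the DMSO libraries of the experiments in tertiles by summed internal exon width (x axis); last exons go from -0.44 to -1.03 and first exons from 0.14 to 0.47.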

How the data were processed

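Whole-number counts per exon or intron bin were deposited by the authors in 4 tables, without normalization, with p-values and log2 fold changes of bin usage from their own test per the file headers; alignment with STAR to hg19 is per the submitters' processing notes. The counter and its strand setting are not given in the sources used here. A read that crosses bins can count in each. Column letters were not tied to sample titles. Nothing says libraries were separate cultures, so p-values measure the spread between these libraries (chi-square over degrees of freedom 2.93 to 113 in 22 pairs). The highest values were of DMSO library a at 6 h in the OSMI-2 experiment, 113 with b and 101 with c. Libraries b and c gave 16.9 with each other. First (or last) counts were tested in edgeR 4.0.16 (R 4.3.3, quasi-likelihood F test, Benjamini-Hochberg) with log(internal counts + 1) as offset; log2 library ratios used a pseudocount of 1. Alternatives used limma 3.58.1, DESeq2 1.42.0, other minima and denominators, and the column letter as a block. The code was tested on simulated data. For exons sharing another class, 49 first and 94 last bins were left out. Named were, per comparison and end, up to 3 rises and 3 falls by size among calls with means of 50 or more counts and no overlap of groups, the other drug calls, OGT, MGEA5 and called list members; naming in DMSO comparisons was added after values were seen; genes withheld from reporting are not reported here. Members and lists were chosen with earlier results of these data known.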

Additional observations from a re-analysis of the deposited data

Results flagged for a closer look

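The change of last over internal exons with OSMI-2 at 6 h differed from that with TMG at 6 h by -0.198 on the log2 scale, -0.163 against 0.035 (permuting treatment within each experiment, exact permutation p = 0.015, adjusted p = 0.21 over 42 tests). For last over first exons the same difference was -0.463 (exact permutation p = 0.03, adjusted p = 0.252). The change of last over internal exons in DMSO from 2 h to 6 h differed between the experiments by 0.28, with 0.075 in the TMG and -0.206 in the OSMI-2 experiment (exact permutation p = 0.02, adjusted p = 0.21), and for last over first exons by 0.458 (exact permutation p = 0.04, adjusted p = 0.263). Each unadjusted p was under 0.05 and none passed after adjustment. Groups of 3 or fewer libraries were not examined for outlying values.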

How the results depend on the processing

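Of the alternatives that keep all libraries, these moved a count of calls by over 1.5 times or a library difference (log2) by over 1 SD, and the causes were not tested. Here first and last name the exon set against internal counts, a whole number is a count of genes called, DMSO time is 6 h against 2 h, and between experiments is the DMSO libraries of the TMG experiment against those of the OSMI-2 experiment. With limma on the log2 ratio: 0 for first OSMI-2 at 2 h, 1 for first OSMI-2 at 6 h, 3 for last OSMI-2 at 6 h, 2 for last TMG at 2 h, 1 for first TMG at 6 h, 0 for last TMG at 6 h, 0 for first DMSO time (OSMI-2), 5 for last DMSO time (OSMI-2), 110 for first DMSO time (TMG), 15 for last DMSO time (TMG), 289 for first between experiments. With DESeq2 Wald test: 9 for first OSMI-2 at 2 h, 1 for last OSMI-2 at 2 h, 0 for first OSMI-2 at 6 h, 33 for last OSMI-2 at 6 h, 3 for last TMG at 2 h, 10 for first DMSO time (OSMI-2), 211 for last DMSO time (OSMI-2), 6 for last OSMI-2 interaction. With minimum mean count 50: 0 for first OSMI-2 at 2 h, 2 for last TMG at 2 h, 4 for first DMSO time (OSMI-2), 212 for first DMSO time (TMG), 619 for last between experiments, 0.34 for first between experiments at 2 h, -0.51 for last between experiments at 6 h. With minimum mean count 1: 9 for first OSMI-2 at 2 h, 15 for first OSMI-2 at 6 h, 1 for first TMG at 2 h, 2 for first TMG at 6 h, 35 for first DMSO time (OSMI-2), 30 for last DMSO time (OSMI-2), 6 for first OSMI-2 interaction. With centred on the library median: 14 for first OSMI-2 at 2 h, 1 for last OSMI-2 at 6 h, 1 for first TMG at 2 h, 2 for first TMG at 6 h, 34 for first DMSO time (OSMI-2), 37 for last DMSO time (OSMI-2), 123 for first DMSO time (TMG), 1 for first OSMI-2 interaction, 1 for last OSMI-2 interaction, 264 for first between experiments. With all other bins of the gene as denominator: 5 for first OSMI-2 at 2 h, 1 for first TMG at 2 h, 38 for first DMSO time (OSMI-2), 161 for last DMSO time (OSMI-2), 7 for first OSMI-2 interaction. With all genes with this end and internal exons: 4 for first OSMI-2 at 2 h, 21 for last OSMI-2 at 6 h, 70 for first DMSO time (OSMI-2), 685 for first DMSO time (TMG), 2 for first OSMI-2 interaction, 828 for first between experiments, 3106 for last between experiments. With fit of all libraries: 20 for first OSMI-2 at 2 h, 3 for first OSMI-2 at 6 h, 44 for last OSMI-2 at 6 h, 0 for last TMG at 6 h. With genes with a promoter, GC trend kept: 3 for first OSMI-2 at 6 h, 3 for last OSMI-2 at 6 h, 1 for first TMG at 2 h, 0 for last TMG at 6 h, 6 for first DMSO time (OSMI-2). With authors' deposited test: 57 for first OSMI-2 at 6 h, 113 for last OSMI-2 at 6 h, 4 for first TMG at 2 h, 6 for last TMG at 2 h, 8 for last TMG at 6 h. With promoter GC trend removed: 3 for last OSMI-2 at 6 h, 1 for first TMG at 2 h, 0 for last TMG at 6 h. With pseudocount 5 in the offset: 165 for last DMSO time (OSMI-2). With ratio of summed counts: -0.27 for first DMSO time (OSMI-2), -0.30 for first between experiments at 2 h, -0.34 for first between experiments at 6 h, -0.59 for last between experiments at 2 h, -0.49 for last between experiments at 6 h, 0.22 for last/first DMSO time (OSMI-2), -0.30 for last/first between experiments at 2 h, -0.15 for last/first between experiments at 6 h. Leaving out 1 library at a time, counts of calls ran 0 to 28 for first OSMI-2 at 2 h, 0 to 0 for last OSMI-2 at 2 h, 1 to 9 for first OSMI-2 at 6 h, 1 to 12 for last OSMI-2 at 6 h, 0 to 4 for first TMG at 2 h, 0 to 1 for last TMG at 2 h, 0 to 2 for first TMG at 6 h, 0 to 2 for last TMG at 6 h, 5 to 52 for first DMSO time (OSMI-2), 14 to 197 for last DMSO time (OSMI-2), 133 to 589 for first DMSO time (TMG), 9 to 84 for last DMSO time (TMG), 0 to 40 for first OSMI-2 interaction, 0 to 3 for last OSMI-2 interaction, 0 to 0 for first TMG interaction, 0 to 1 for last TMG interaction, 340 to 491 for first between experiments, 1349 to 1402 for last between experiments. Library differences (log2) ran -0.15 to 0.02 for first OSMI-2 at 2 h, 0.08 to 0.22 for first OSMI-2 at 6 h, -0.09 to -0.04 for first TMG at 2 h, -0.11 to 0.00 for first TMG at 6 h, -0.18 to -0.06 for first DMSO time (OSMI-2), -0.38 to -0.27 for first DMSO time (TMG), 0.23 to 0.28 for first between experiments at 2 h, -0.02 to 0.12 for first between experiments at 6 h, -0.16 to 0.07 for last OSMI-2 at 2 h, -0.23 to -0.10 for last OSMI-2 at 6 h, 0.01 to 0.07 for last TMG at 2 h, 0.02 to 0.05 for last TMG at 6 h, -0.29 to -0.12 for last DMSO time (OSMI-2), 0.06 to 0.10 for last DMSO time (TMG), -0.94 to -0.78 for last between experiments at 2 h, -0.60 to -0.54 for last between experiments at 6 h, -0.13 to 0.24 for last/first OSMI-2 at 2 h, -0.47 to -0.20 for last/first OSMI-2 at 6 h, 0.09 to 0.18 for last/first TMG at 2 h, 0.04 to 0.17 for last/first TMG at 6 h, -0.17 to 0.00 for last/first DMSO time (OSMI-2), 0.33 to 0.46 for last/first DMSO time (TMG), -1.18 to -1.02 for last/first between experiments at 2 h, -0.73 to -0.56 for last/first between experiments at 6 h. The column letters a, b and c are not tied to the replicate numbers of the labels; a fit with the letter as a replicate block was added after seeing the data. It gave 0 calls for first OSMI-2 at 2 h, 3 calls for last OSMI-2 at 6 h, 36 calls for first DMSO time (OSMI-2), 81 calls for last DMSO time (TMG), and changed no other count by over 1.5 times. Over the 6 comparisons and both ends, deviations of same-letter libraries from their group means correlated across genes at -0.14 to 0.14, and every library of the first-named group correlated best with its own letter for last exons with TMG at 2 h alone, so the letters were not taken as pairs.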

Other observations

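Of the 1638 tested genes, 609 also carry a detained intron in the authors' classes, an intron kept in polyadenylated transcripts. Between the DMSO libraries of the experiments, first exons were called in 41.1% of these genes and in 18.8% of the 1029 others, with median log2 differences of 0.37 and 0.19. Last exons were called in 93.4% and 80.2%, with medians of -0.81 and -0.64. With OSMI-2 at 6 h the last-exon medians were -0.18 and -0.13, and with TMG at 6 h 0.02 and 0.04. These splits were described after seeing the data and the difference between the gene groups was not tested. In the OSMI-2 experiment, detained introns held 0.756% to 1.21% of all bin counts in the DMSO libraries at 6 h. They held 0.239% to 0.276% with DMSO at 2 h, 0.232% to 0.278% with OSMI-2 at 2 h and 0.286% to 0.328% with OSMI-2 at 6 h. Whether this goes with the calls at the ends was not tested.

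By level rather than ratio, the 6 h DMSO libraries of the TMG experiment had lower first exons than the 2 h ones in 451 genes and higher in 60 (511 called by edgeR, 31.2%). Internal exons rose in 546 and fell in 256 (49.0% called), and last exons rose in 600 and fell in 194 (48.5% called). With TMG at 6 h, 143 last exons were called by level (8.73%), 100 of them higher, against 55 internal parts (3.36%) and 9 first exons (0.549%). With OSMI-2 at 6 h, 42 last exons were called (2.56%), 37 of them lower, against 1 internal part (0.0611%) and 11 first exons (0.672%).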
